A study of Mus musculus with 4 samples.

Results

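Cell cycle genes were followed across CD45+ immune cells sorted from 2 brain regions, thalamus and hippocampus (HPC), after an injury of the cortex. The 40 genes were taken by name from the 32285 genes of the matrices and all 40 were found. By role they fell into 15 S-phase genes, 23 mitotic genes, and Hmgb2 and Stmn1, which cells outside division also hold and which were kept out of both sums.

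A dividing cell copies its DNA in S phase and then separates the copies in mitosis. The MCM proteins form the helicase that opens DNA for copying, PCNA is the clamp that holds the polymerases, and TYMS and the RRM subunits make the nucleotides. Later, cyclins B and A with CDK1 drive entry into mitosis, TOP2A untangles the chromosomes, kinesins and TPX2 build the spindle, and the centromere, Aurora and BUB proteins attach the chromosomes and check them. MKI67 coats mitotic chromosomes and is the usual marker of dividing cells. Microglia of the adult brain divide rarely at rest and more after injury, and neutrophils do not divide once they leave the bone marrow.

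Live CD45+ cells (CD45 is the surface protein of leukocytes and microglia) of C57B6/J mice were profiled by 10x 3′ single-cell RNA sequencing in 4 tagged sets of each region, and each set was taken as 1 mouse, which the labels do not state. Both groups carried the same cortical brain injury (in the study's methods, removal of cortex on 1 side, with tissue from the injured hemisphere), no uninjured mice were included, and the day after injury is not stated in the labels. Because each region was run as a separate 10x library, a difference between regions cannot be told apart from one between libraries. The cells of 4 mice were pooled per region, and the sets of a region shared 0 barcodes. Of 29190 cells, 24939 were kept, and the sets held 2072 to 5389 of them with 9789875 to 26636526 unique molecules (UMIs).

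Cells were classed by marker genes, none of them a cell cycle gene, into 18857 microglia, 2837 T cells, 926 neutrophils, 221 macrophages, 185 dendritic cells, 129 NK cells and 75 B cells. A further 902 cells passed several gates and 797 passed none. P2ry12 was detected in 95.5% of microglia, Cd3g in 97.7% of T cells and S100a8 in 95.2% of neutrophils. The macrophage gate joined markers of monocytes and of border macrophages. The monocyte gene Ccr2 was detected in 86.4% of its cells, but also in 60.8% of T cells and 55.8% of NK cells. Of the markers of border macrophages, Ms4a7 was detected in 52.9%, Mrc1 in 30.3% and Pf4 in 15.8% of the macrophages. Cd163 was detected in 3.17%, Cbr2 in 2.26% and Lyve1 in 0% of them. Levels are given as CPM, the UMIs of a gene scaled to a common total of UMIs in the class and set. In such sums a few cells with high levels and many cells with slightly raised levels cannot be told apart, so the cells were also counted one by one.

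The promoters of 6 of these genes are shown because mitotic and S-phase genes carry different short sequences there. RefSeq (GRCm38.p6) promoter windows, from 250 bases before to 50 bases after the start of transcription, were found for 31 of the 40 genes. The 200 bases before the start are printed 5′ to 3′ on the strand of the gene. Capitals mark CCAAT, the site of NF-Y, TTTGAA, the core of the cell cycle homology region, and the E2F-type letters TTTCCCGC, TTTCGCGC, TTTGCCGC and TTTGGCGC, each on either strand. Neighbouring E2F-type matches can overlap.
Mki67 (chr7:135716380-135716579, minus strand): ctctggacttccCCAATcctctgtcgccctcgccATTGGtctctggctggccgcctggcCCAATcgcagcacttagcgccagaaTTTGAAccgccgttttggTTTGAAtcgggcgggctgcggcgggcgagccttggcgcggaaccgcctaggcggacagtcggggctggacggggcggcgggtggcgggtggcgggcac
Top2a (chr11:99024190-99024389, minus strand): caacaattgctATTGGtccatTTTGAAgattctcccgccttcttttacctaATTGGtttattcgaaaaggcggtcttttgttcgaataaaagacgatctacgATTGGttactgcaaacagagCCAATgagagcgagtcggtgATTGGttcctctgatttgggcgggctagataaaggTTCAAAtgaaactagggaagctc
Cdk1 (chr10:69352913-69353112, minus strand): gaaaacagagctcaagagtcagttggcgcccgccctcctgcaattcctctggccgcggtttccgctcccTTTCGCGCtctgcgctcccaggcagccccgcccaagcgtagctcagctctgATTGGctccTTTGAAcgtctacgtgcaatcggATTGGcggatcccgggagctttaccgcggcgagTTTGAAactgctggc
Ccnb2 (chr9:70421555-70421754, minus strand): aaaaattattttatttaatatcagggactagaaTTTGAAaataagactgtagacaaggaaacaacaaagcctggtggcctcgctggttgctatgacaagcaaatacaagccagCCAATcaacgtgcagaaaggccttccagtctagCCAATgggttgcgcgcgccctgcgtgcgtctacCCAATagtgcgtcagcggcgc
Mcm5 (chr8:75109309-75109508, plus strand): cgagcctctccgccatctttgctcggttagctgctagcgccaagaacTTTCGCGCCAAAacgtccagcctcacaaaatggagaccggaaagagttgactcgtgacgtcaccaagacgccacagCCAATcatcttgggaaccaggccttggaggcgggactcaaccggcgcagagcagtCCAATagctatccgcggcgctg
Mcm6 (chr1:128359706-128359905, minus strand): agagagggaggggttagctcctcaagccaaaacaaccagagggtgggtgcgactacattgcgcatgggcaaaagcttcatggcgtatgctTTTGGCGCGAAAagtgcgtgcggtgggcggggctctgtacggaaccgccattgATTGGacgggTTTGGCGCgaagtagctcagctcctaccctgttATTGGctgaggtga
The 200 bases of Mki67, Top2a and Cdk1 held 2 TTTGAA each and those of Ccnb2 held 1, while those of Mcm5 and Mcm6 held 0. The E2F-type letters were matched 2 times in Mcm5, 3 times in Mcm6 and 1 time in Cdk1.

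Over the whole windows, TTTGAA was present in 15 of 20 windows of mitotic genes (75%), in 1 of 12 windows of S-phase genes (8.33%) and in 17.9% of all 32851 windows of the table. CCAAT was present in 18 of 20 mitotic windows (90%), 10 of 12 S-phase windows (83.3%) and 37.4% of all windows. E2F-type letters were present in 6 of 12 S-phase windows (50%), 1 of 20 mitotic windows (5%) and 2.26% of all windows. These matches describe letters in a window and are not evidence that a factor was bound there.

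To ask whether cell cycle genes differed between the regions in microglia, counts were summed over the microglia of each set and compared with edgeR. Among these 40 genes, which were chosen with earlier results of these data known, many were higher in thalamic microglia. Of the 32 genes that passed the filter on low counts, 17 were higher and 0 lower (adjusted p under 0.05). This was 53.1% of those tested, against 7.97% of all 13028 genes tested called higher and 4.21% called lower. All 32 tested genes had a positive log2 fold change. Of all 40 genes, 25 had every thalamus set above every HPC set, among them the 8 that the filter removed (Rrm2, Cdc6, Pbk, Ccnb1, Ccna2, Bub1, Plk1 and Nusap1). That was 62.5%, against 5.59% of the 22790 genes with a UMI in microglia, and among tested genes it was 17 of 32, against 8.31% of all tested.

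**Figure D1:**
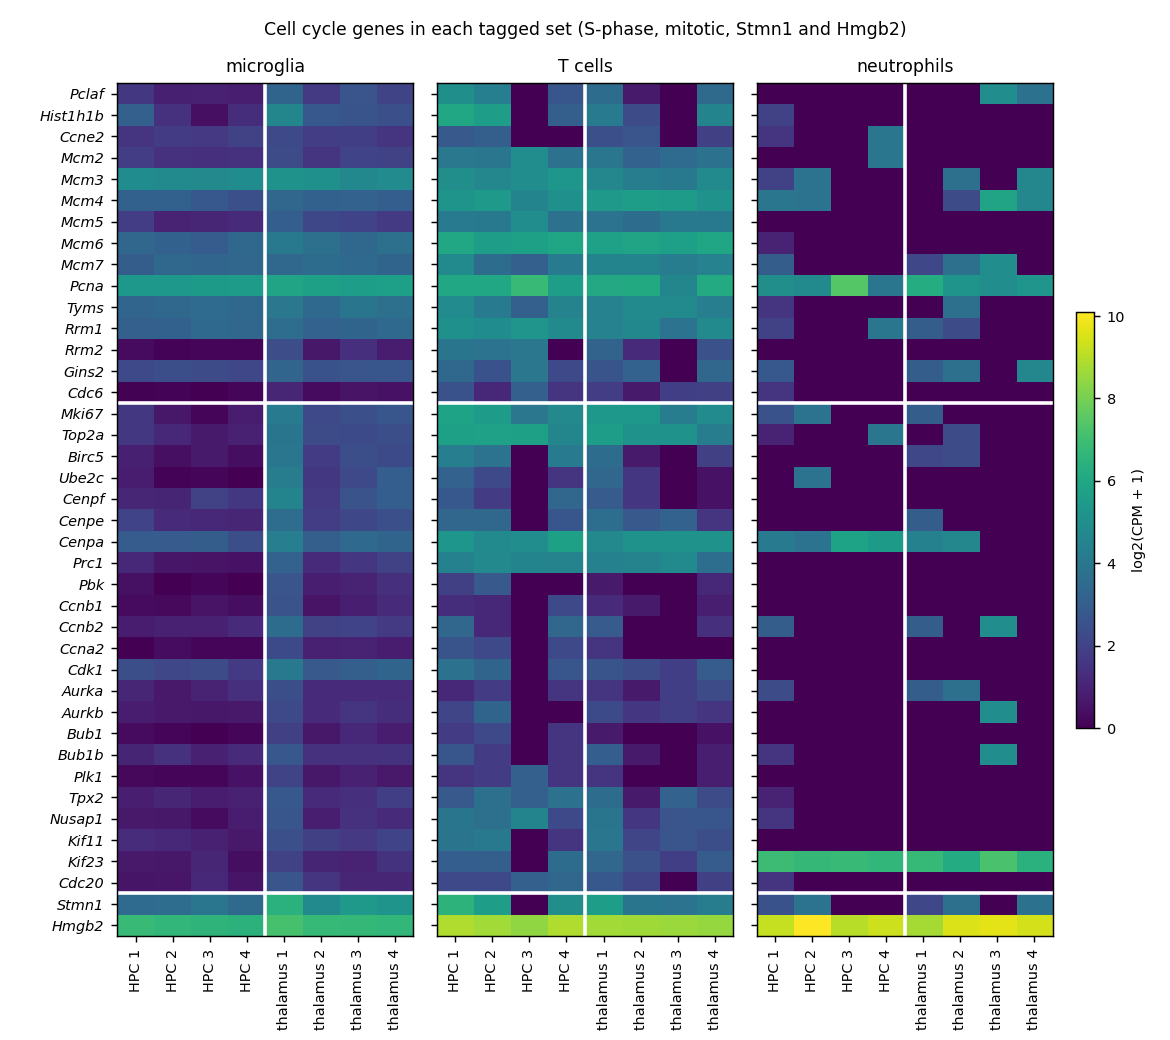
Levels of the 40 cell cycle genes (rows) in the 8 tagged sets (columns) of microglia, T cells and neutrophils, as log2(CPM + 1), with white lines between the regions and between S-phase genes, mitotic genes and the last pair. Thalamus set 1 was the highest microglia column for 39 of the 40 genes, and Kif23 stood out among the mitotic genes of neutrophils, of which HPC set 3 and thalamus set 3 held only 9 and 17 cells.

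The mitotic genes moved most. Of 17 tested, 11 were higher in thalamic microglia, with a median log2 fold change of 1.75 over the 17, against -0.01 over all genes. Mki67 was at 17.3, 3.70, 4.58 and 5.43 CPM in thalamus sets 1 to 4 and at 2.13, 0.57, 0.11 and 0.70 CPM in HPC sets 1 to 4. Top2a was at 14.2, 3.93, 3.78 and 4.41 CPM in the thalamus and at 2.13, 1.21, 0.66 and 0.90 CPM in the HPC. In both genes every thalamus set lay above every HPC set, and thalamus set 1 lay far above the other thalamus sets. On the log2 scale the difference was 3.04 ± 0.69 (SE, adjusted p = 0.0216) for Mki67 and 2.40 ± 0.54 (adjusted p = 0.0213) for Top2a.

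Genes of mitotic entry and of the centromere were also highest in thalamus set 1. Cdk1, the kinase of mitotic entry, was at 15.9, 6.13, 7.33 and 8.57 CPM in the thalamus and at 4.31, 3.43, 4.07 and 2.29 CPM in the HPC (log2 difference 1.49 ± 0.33, adjusted p = 0.0189). Its partner cyclin B2 (Ccnb2) was at 10.8, 3.01, 3.09 and 2.29 CPM against 0.71, 0.89, 0.88 and 1.40 CPM (2.43 ± 0.55, adjusted p = 0.0214). Birc5, or survivin, which works with Aurora B at centromeres, was at 14.5, 2.43, 4.35 and 3.82 CPM against 0.87, 0.32, 0.66 and 0.30 CPM (3.56 ± 0.67, adjusted p = 0.0104). In none of these genes did the regions overlap. The largest fitted difference among the called genes was that of Ube2c, the ubiquitin-conjugating enzyme that serves the destruction of cyclin B, at 4.89 ± 0.92 (adjusted p = 0.0107), and it rested on 15 UMIs in the HPC against 352 in the thalamus. Cenpf (kinetochore), Prc1 (midzone of the spindle), Tpx2, Aurkb and Kif11 (the motor that separates spindle poles) were also higher, by 1.58 to 2.57 on the log2 scale, and among these only Cenpf had regions that overlapped.

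Of the 6 tested mitotic genes that were not called, Kif23, Cdc20, Cenpe and Cenpa had log2 differences of 0.93 to 1.98 with adjusted p-values of 0.0513 to 0.0716, and those of Bub1b and Aurka were 1.18 and 1.06. With the set number as a replicate block, Cenpe (adjusted p = 0.000236), Cenpa (0.0053), Cdc20 (0.0119), Kif23 (0.0192) and Bub1b (0.042) were called higher as well. The filtered genes were scarce in HPC microglia. Ccna2, cyclin A2, had 71 UMIs in the thalamus and 6 in the HPC, and the spindle checkpoint kinase Bub1 had 58 and 7. Pbk, a mitotic kinase, had 97 and 8, and Ccnb1, cyclin B1, had 85 and 14.

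S-phase genes differed less. Of 13 tested, 5 were higher in thalamic microglia (Pclaf, Mcm6, Pcna, Tyms and Gins2) and the median log2 fold change was 0.50. Pcna was at 59.1, 52.6, 50.2 and 51.5 CPM in the thalamus and at 41.3, 40.6, 44.0 and 46.0 CPM in the HPC (0.38 ± 0.07, adjusted p = 0.0122). Its regions did not overlap, and thalamus set 1 was again the highest. Pclaf, which binds PCNA, was at 4.90 ± 2.83 CPM in the thalamus and 1.14 ± 0.621 CPM in the HPC (SD, n = 4), a log2 difference of 2.08 ± 0.48 (adjusted p = 0.0235).

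Of the other S-phase genes, Mcm5, Hist1h1b and Mcm2 were not called in the main fit. Each was called with the set number as a replicate block, and each was called without HPC set 1. DESeq2 also called Mcm5 (adjusted p = 0.0172), as did edgeR with no filter on low counts (0.0462). With a mitochondrial limit of 5%, edgeR called Mcm5 (adjusted p = 0.0377) and Mcm2 (0.041). Mcm5, a helicase subunit, was at 7.06, 3.59, 3.09 and 2.29 CPM in the thalamus and at 2.57, 1.02, 1.10 and 1.40 CPM in the HPC, so that the regions overlapped (1.41 ± 0.43, adjusted p = 0.0609, and 1.45 with adjusted p = 0.000938 in the blocked fit). Hist1h1b, a linker histone, was at 23.6, 5.78, 5.15 and 4.49 CPM against 7.53, 1.71, 0.33 and 1.495 CPM (1.74 ± 0.78, adjusted p = 0.167, and 1.88 with adjusted p = 0.000197 in the blocked fit). Mcm2, another helicase subunit, differed by 0.68 in both fits (adjusted p = 0.129, and 0.0337 in the blocked fit). Most histone messages of S phase carry no poly(A) tail, so a 3′ method captures few of them. Rrm2, the regulated subunit of ribonucleotide reductase, was too low to be tested, with 4.17, 0.58, 1.60 and 0.76 CPM in the thalamus and 0.22, 0.06, 0.11 and 0.10 CPM in the HPC. Mcm3, Mcm7, Rrm1 and Ccne2 had log2 differences of 0.19 to 0.24.

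Of the pair kept out of the sums, Stmn1, which destabilises microtubules and is phosphorylated in mitosis, was higher in thalamic microglia. It was at 86.0, 27.1, 41.5 and 36.7 CPM in the thalamus and at 10.6, 11.2, 14.7 and 10.4 CPM in the HPC, with no overlap (2.12 ± 0.34, adjusted p = 0.00595). Hmgb2, a chromatin protein, was at 142, 108, 106 and 101 CPM against 110, 103, 94.5 and 89.2 CPM, with overlap (0.27 ± 0.13, adjusted p = 0.183, and 0.26 with adjusted p = 0.003 in the blocked fit).

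These counts depended on single sets. The 17 genes called became 5 without HPC set 2, 6 without HPC set 4, 10 without HPC set 3, 10 without thalamus set 1 and 11 without thalamus set 4, with 0 lower each time, and Pcna, Birc5, Ube2c, Kif11 and Stmn1 were called in each of these fits. With the set number as a replicate block, 26 genes were higher, among them all 17. The share of all genes called in each of these fits is not given. A change in these counts can therefore not be told apart from a change in calls among all genes. Without thalamus set 1, sets 2 to 4 of the thalamus still lay above every HPC set in 25 of the 40 genes, against 6.6% of the genes with a UMI, and in 17 of the 32 tested, against 9.24% of all tested.

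**Figure D2:**
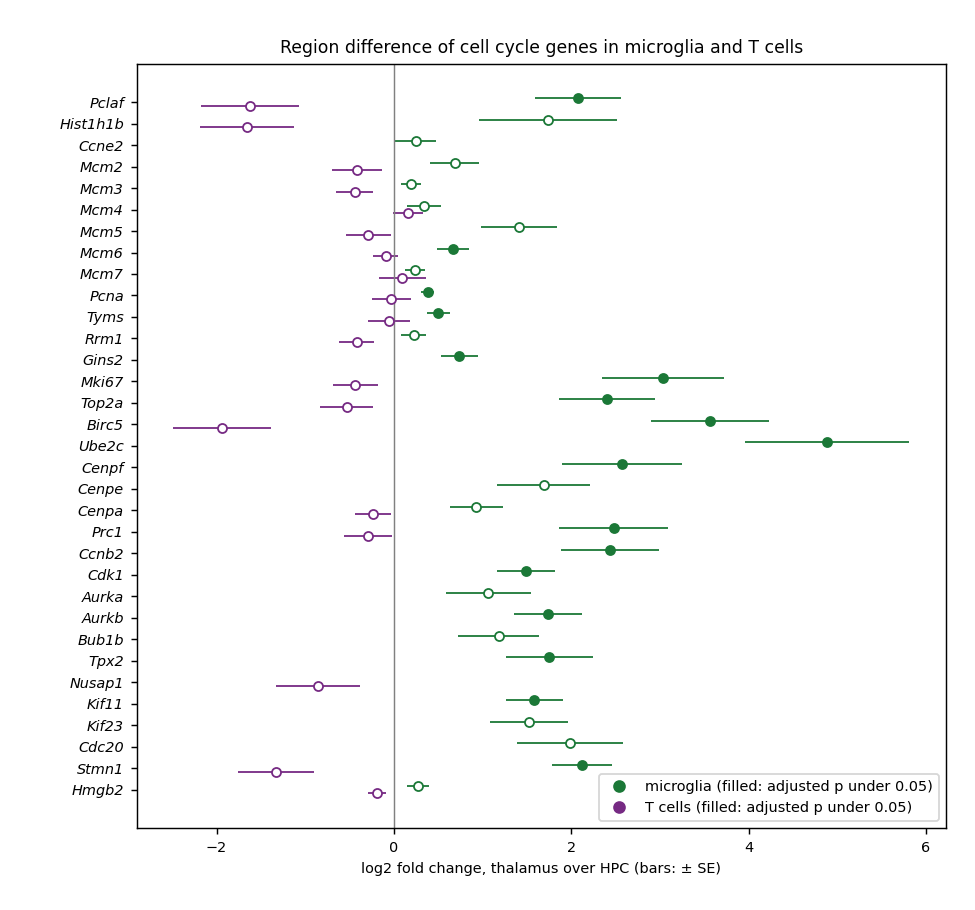
Log2 fold change of thalamus over HPC (horizontal axis, bars ± SE) in microglia (green) and T cells (purple) for the 32 cell cycle genes tested in microglia and the 19 tested in T cells. Filled points had an adjusted p under 0.05. All 17 of these were microglial and lay right of 0, and 17 of the 19 T cell points lay left of 0.

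Other genes of the cell cycle, in lists chosen apart from the 40, gave fewer calls in thalamic microglia. Of 26 tested S-phase genes outside the 40, 3 were higher and 0 lower (median log2 fold change 0.47), and of 27 tested mitotic genes 4 were higher and 0 lower (0.71). Of 25 tested genes of G1 control, 5 were higher and 0 lower (0.12). Each of these counts stands against 7.97% of all genes called higher, and the S-phase and mitotic counts lay near it. Cdkn1a, the p21 inhibitor of cyclin-dependent kinases, was higher by 1.99 ± 0.29 on the log2 scale (44.5 ± 19.1 CPM in the thalamus and 11.7 ± 2.13 CPM in the HPC, SD, n = 4, adjusted p = 0.00411). The S-phase activator E2f1 was higher by 1.49 ± 0.36 (adjusted p = 0.0276), the dUTPase Dut by 0.87 ± 0.14 (adjusted p = 0.00623), the helicase subunit Gins1 by 0.58 ± 0.15 (adjusted p = 0.0332) and Myc by 0.50 ± 0.10 (adjusted p = 0.0122).

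Next, dividing cells were counted. Each cell was thinned to 1500 UMIs, which left out 136 thalamic and 141 HPC microglia, and was called mitotic-positive with at least 3 UMIs over the 23 mitotic genes and S-positive with at least 5 over the 15 S-phase genes. No p is given for these sums. In the thalamus, 96 of 8041 microglia were mitotic-positive (1.19%, exact 95% interval 0.968 to 1.46%), whereas the HPC had 6 among 10539 (0.0569%, 0.0209 to 0.124%). The intervals cover counting error only. Per set, mitotic-positive microglia made up 2.80, 0.466, 0.551 and 0.727% in thalamus sets 1 to 4 and 0.146, 0.0317, 0 and 0% in HPC sets 1 to 4. For 0 cells, the exact 95% interval reached 0.192% in HPC set 3 and 0.18% in HPC set 4. The regions did not overlap. Thalamus set 1 held 61 of the 96 cells (63.5%) but 27.0% of the thalamic microglia counted. The mean share of the thalamus sets exceeded that of the HPC sets by 1.09 percentage points, and by 0.537 without thalamus set 1.

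Median depth was alike, at 4731 UMIs in the thalamus and 4768 in the HPC. Without thinning, the mean share over the sets was 2.30% in the thalamus and 0.244% in the HPC. S-positive microglia numbered 36 in the thalamus (0.448%) and 3 in the HPC (0.0285%), at 0.966, 0.292, 0.331 and 0.171% in the thalamus sets and 0.0877, 0, 0 and 0% in the HPC sets. Without thinning their mean shares were 2.14% and 0.326%.

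**Figure D3:**
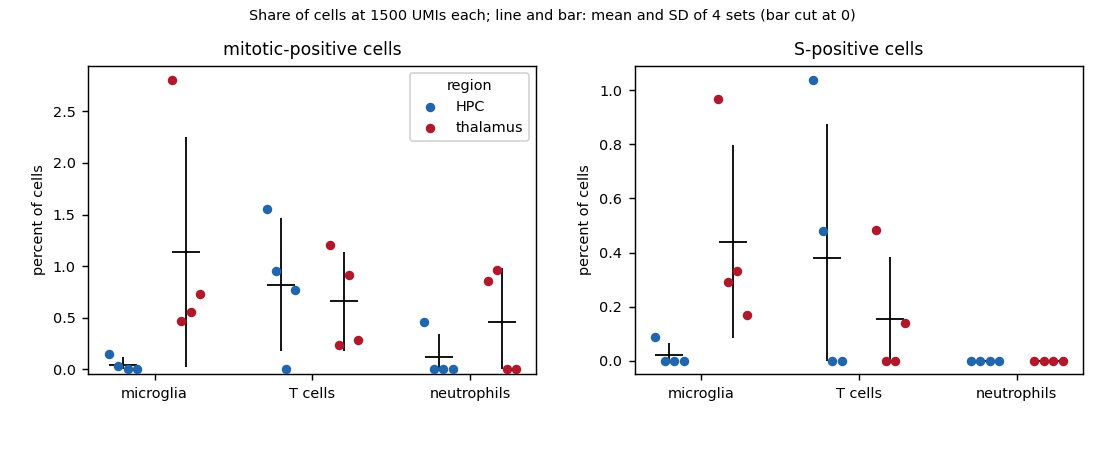
Percent of cells that were mitotic-positive (left) or S-positive (right) in each tagged set after thinning to 1500 UMIs, with the mean and SD of the 4 sets of each region, the bar ending at 0 where it would fall below. The 4 thalamus sets of microglia lay between 0.466 and 2.80% mitotic-positive cells, above every HPC set.

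Neutrophils, the class that should lack division, gave the background. Thalamic neutrophils held 2 mitotic-positive cells among 266 (0.752%, 0.0912 to 2.69%) and HPC neutrophils 2 among 495 (0.404%, 0.0490 to 1.45%), at median depths of 1962 and 2065 UMIs. All of them held exactly 3 UMIs, and 0 remained in either region when Kif23 was left out of the sum. S-positive neutrophils were 0 in both regions, which allows shares of up to 1.13% and 0.606%. With these few neutrophils, a background as low as the share of HPC microglia could not be measured. The 6 HPC cells held Stmn1 at 1062 CPM against 10.8 CPM in the other HPC microglia and Hmgb2 at 826 against 101 CPM, 33.3% of them were also S-positive, and 33.3% passed the stricter microglia gate against 93.9% of the rest. The interval of thalamic microglia lay within the wide interval of thalamic neutrophils. Leaving Kif23 out, 95 thalamic and 5 HPC microglia were mitotic-positive.

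The positive cells of the thalamus spread far above the limit. Of the 96 cells, 19 lay at the limit of 3 UMIs, 24 held 10 or more, and the highest held 22, while the highest HPC cell held 7. Another 44 thalamic microglia, outside the 96, held 2 UMIs, just below the limit. The 96 cells, 1.19% of the cells counted, held 60.0% of the mitotic UMIs of thalamic microglia but 11.6% of the S-phase UMIs. In the remaining microglia the mitotic sum was 48.3 CPM in the thalamus and 24.2 CPM in the HPC, and the S-phase sum was 156 and 125 CPM.

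**Figure D4:**
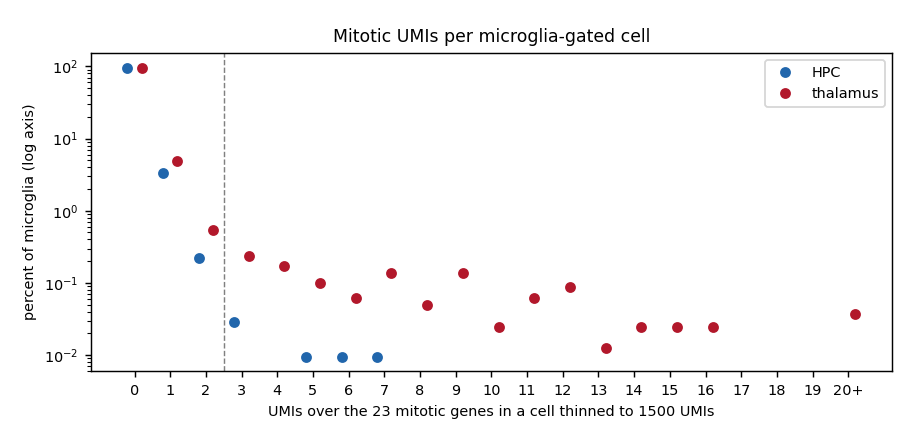
Percent of microglia (vertical log axis) by the number of UMIs over the 23 mitotic genes in a cell thinned to 1500 UMIs, for the thalamus (red) and the HPC (blue), with the limit as a dashed line and the last bin holding 20 or more. Numbers of UMIs that no cell held are not drawn. Beyond 7 UMIs all cells were thalamic.

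Within the 96 cells, before thinning, Birc5 was detected in 79.2%, Ube2c in 71.9%, Mki67 in 63.5%, Top2a in 61.5% and Ccnb2 in 59.4%, against 0.516 to 1.16% of the other thalamic microglia. These genes chose the cells, so this is a description. Genes outside the mitotic sum were high there as well. Stmn1 was detected in 94.8% of the positive cells and 9.72% of the rest, and its level was 1546 against 31.6 CPM. Hmgb2 was at 932 against 106 CPM. Of the 96 cells, 18.8% were also S-positive, against 0.227% of the rest, and 50% of the 36 S-positive cells were mitotic-positive. Median depth was 4520 UMIs in the positive cells and 4733 in the rest. Of the positive cells 1.04% stood among the top 5% of doublet scores, against 2.54% of the rest, and 85.4% passed the stricter microglia gate, against 91.8%.

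In T cells, no cell cycle gene passed the test between the regions. Of 19 genes tested with edgeR, 0 were higher and 0 lower in the thalamus, while 4 had an unadjusted p under 0.05 and DESeq2 called 0. Over all 8993 genes tested, 0.2% were called higher and 0.0556% lower. Most values lay the other way from microglia. Of the 40 genes, 35 had the higher mean in the HPC. Mki67 was at 41.2, 40.9, 18.6 and 27.9 CPM in the thalamus sets and at 57.6, 46.5, 15.1 and 25.7 CPM in the HPC sets, which overlapped (log2 difference -0.44 ± 0.26, adjusted p = 0.881). Top2a was at 50.2, 34.9, 34.5 and 17.7 CPM against 53.1, 53.8, 53.0 and 23.8 CPM (-0.53 ± 0.30, adjusted p = 0.881). HPC set 3 held only 30 T cells and 132192 UMIs, so that 1 UMI was worth 7.56 CPM there.

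The genes with the largest differences in T cells overlapped too. Birc5 was at 10.95, 0.67, 0 and 2.75 CPM in the thalamus sets and at 18.9, 13.5, 0 and 16.5 CPM in the HPC sets (-1.94 ± 0.55, adjusted p = 0.286). Stmn1 was at 47.7, 14.1, 13.3 and 17.7 CPM against 91.8, 50.1, 0 and 31.2 CPM (-1.33 ± 0.42, adjusted p = 0.375). Hist1h1b was at 16.7, 4.02, 0 and 22.8 CPM against 64.4, 50.1, 0 and 7.33 CPM (-1.66 ± 0.53, adjusted p = 0.375). Without thalamus set 1, Birc5 was lower in the thalamus (-3.15, adjusted p = 0.0203), and with the set number as a replicate block Stmn1 and Hist1h1b were lower (-1.07, adjusted p = 0.00287, and -1.52, adjusted p = 0.0205).

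Pcna was at 68.3, 69.1, 23.9 and 71.2 CPM in the thalamus sets of T cells and at 64.7, 64.8, 113 and 47.6 CPM in the HPC sets, and Mcm5 was at 13.5, 10.7, 15.9 and 16.1 CPM against 17.4, 15.9, 30.3 and 12.8 CPM. Both overlapped widely. Cdk1 was at 5.15, 4.02, 2.65 and 6.69 CPM against 12.8, 8.56, 0 and 5.50 CPM, Ccnb2 at 6.44, 0, 0 and 1.57 CPM against 9.15, 1.22, 0 and 9.16 CPM, and Rrm2 at 8.37, 1.34, 0 and 4.72 CPM against 14.0, 13.5, 15.1 and 0 CPM, and none of these 3 passed the filter. Hmgb2 was at 410, 399, 385 and 358 CPM against 480, 412, 340 and 473 CPM (-0.20 ± 0.10, adjusted p = 0.846).

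Mitotic-positive T cells numbered 9 among 1666 thalamic (0.540%) and 15 among 1139 HPC T cells (1.32%), with 1.21, 0.233, 0.909 and 0.281% in the thalamus sets and 1.56, 0.957, 0 and 0.769% in the HPC sets. The regions overlapped, and HPC set 1 held 12 of the 15 cells. The difference of the mean shares was -0.164 percentage points and became -0.679 with another random draw of UMIs, so its size was not settled at this number of cells. Median depths were 3403 and 3882 UMIs. Without thinning the mean shares were 3.26% and 5.23%. Unlike in thalamic microglia, where positive cells held 60.0% of the mitotic UMIs, they held 13.6% in thalamic and 36.1% in HPC T cells, and the mitotic sum of the remaining T cells was 142 and 139 CPM. S-positive T cells were 3 and 9.

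That the region difference itself differed between the classes was tested with a class by region term. Of 38 cell cycle genes tested, 18 had a lower thalamus-to-HPC difference in T cells than in microglia and 0 a higher one. This was 47.4% of those tested, against 1.14% of all 13406 genes lower and 0.0821% higher. They included 14 of 21 mitotic genes, 3 of 15 S-phase genes and Stmn1. The difference of log2 differences was -5.40 ± 0.55 for Birc5 (adjusted p = 2.3e-06), -3.43 ± 0.33 for Stmn1 (adjusted p = 1.21e-06), -3.12 ± 0.45 for Mki67 (adjusted p = 0.000257), -2.73 ± 0.38 for Top2a (adjusted p = 0.000158) and -2.29 ± 0.45 for Cdk1 (adjusted p = 0.00615). Leaving out 1 set at a time gave 13 to 20 genes, and DESeq2 gave 12.

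Compared with microglia of the same sets, T cells held more cell cycle transcripts. Of 31 genes tested, 22 were higher in T cells and 0 lower, 71.0% of those tested, against 37.4% of all 12303 genes higher and 40.1% lower. Prc1 was at 21.4 ± 4.61 CPM in T cells and 2.13 ± 2.56 CPM in microglia (SD, n = 8), higher by 3.42 ± 0.44 on the log2 scale (adjusted p = 1.53e-06). Top2a was higher by 3.41 ± 0.39 (adjusted p = 3.79e-07), Mki67 by 3.29 ± 0.45 (adjusted p = 3.03e-06), Nusap1, a spindle protein, by 2.76 ± 0.47 (adjusted p = 3.8e-05) and Kif23, a motor of cell cleavage, by 2.55 ± 0.39 (adjusted p = 1.13e-05). Each of Prc1, Top2a, Mki67 and Nusap1 was higher in T cells in 8 of 8 sets, and Kif23 in 7 of 8.

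Of the 6 helicase genes, 5 were higher in T cells. Mcm2, Mcm4, Mcm5 and Mcm6 were higher in T cells by 2.38 to 2.47 on the log2 scale in 8 of 8 sets, and Mcm7 by 1.19 ± 0.17. Mcm3 was at 26.1 ± 7.21 CPM in T cells and 29.0 ± 3.33 CPM in microglia, and was not called (-0.21 ± 0.13, adjusted p = 0.166), though it was lower in T cells with DESeq2 (-0.38, adjusted p = 0.0345) and under 3 of the other settings. Pcna was higher by 0.39 ± 0.13 (adjusted p = 0.0122) and Hmgb2 by 1.94 ± 0.09 (adjusted p = 2.5e-12). Stmn1, Cdk1, Ube2c and Cenpf had differences of -0.39 to 0.45 over both regions and were not called. In each of them the pooled level of T cells lay below that of microglia in the thalamus (Ube2c at 3.02 and 8.60 CPM) and above it in the HPC (6.28 and 0.282 CPM).

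Of the other lists, 25 of 27 tested S-phase genes and 17 of 23 tested mitotic genes were higher in T cells, with 1 lower in each, against 37.4% of all genes higher and 40.1% lower. G1 genes were split, with 12 of 24 higher and 8 lower. Cyclin D2 (Ccnd2) was at 528 ± 51.9 CPM in T cells and 2.89 ± 0.92 CPM in microglia (SD, n = 8), whereas cyclin D1 (Ccnd1) was at 2.99 ± 1.73 and 65.5 ± 7.84 CPM, log2 differences of 7.49 ± 0.15 (adjusted p = 1.65e-17) and -4.22 ± 0.17 (adjusted p = 1.42e-13). Dut, the phosphatase Cdc25b, Racgap1, a partner of Kif23, and the condensin subunit Smc4 were higher in T cells by 3.12 to 3.77. The inhibitor Cdkn1c, E2f3, Gins1 and the antiproliferative gene Btg2 were lower by 1.69 to 3.59 on the log2 scale.

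In neutrophils 1 mitotic gene stood apart. Kif23 was at 107, 73.6 and 87.1 CPM in thalamus sets 1, 2 and 4 and at 121, 106 and 103 CPM in HPC sets 1, 2 and 4, against 0.30 to 2.89 CPM over the 8 sets of microglia. It was higher than in microglia by 6.56 ± 0.33 on the log2 scale (adjusted p = 7.33e-85). No exon of Kif23 (chr9:61915905-61946774, minus strand, GENCODE M21, GRCm38) is shared with another annotated gene. After thinning to 1500 UMIs, 105 of 761 neutrophils held a Kif23 UMI (13.8%, exact 95% interval 11.4 to 16.5%), against 23 of 18580 microglia (0.124%), 29 of 2805 T cells (1.03%) and 6 of 184 dendritic cells (3.26%), although neutrophils were the shallowest class, with a median of 2032 UMIs. Of the 135 neutrophils with a Kif23 UMI before thinning, 0 held 3 or more UMIs of the other mitotic genes, whereas 28 of 79 such microglia did. This count was not made at matched depth, and the median of microglia was 4754 UMIs.

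Of 15 cell cycle genes tested in neutrophils against microglia in 6 sets, 3 were higher (Kif23, Cenpa and Hmgb2) and 5 lower, against 21.9% of all 11608 genes higher and 40.6% lower. Hmgb2 was at 697 ± 215 CPM in neutrophils and 109 ± 17.6 CPM in microglia (SD, n = 6), higher by 2.65 ± 0.19 on the log2 scale (adjusted p = 2.31e-42). Cenpa, the centromeric histone, was at 19.8 ± 14.5 and 8.69 ± 5.09 CPM (1.27 ± 0.39, adjusted p = 0.00238). Cdk1 had 0 UMIs in neutrophils and 497 in microglia, so it was at least 3.87-fold higher in microglia at a floor of 3 UMIs over the 6 neutrophil sums. Mcm6 had 1 UMI in neutrophils and 819 in microglia, a 19.1-fold ratio with a counting interval of 3.42 to 756. Mcm3, Tyms and Stmn1 were lower in neutrophils by 1.67 to 2.33 on the log2 scale. Of 13 tested mitotic genes outside the 40, 4 were higher in neutrophils and 5 lower. Cks2, which binds cyclin-dependent kinases, was at 239 ± 43.5 and 19.7 ± 4.23 CPM, and Cks1b at 0.16 ± 0.40 and 6.51 ± 3.93 CPM. Among genes of granule proteins, Camp was detected in 1.40%, Ngp in 1.94%, Ltf in 4.86% and Mmp8 in 7.02% of neutrophils. Mmp9 was detected in 58.2% of them. Between the regions, 0 of the 2 genes tested in neutrophils (Kif23 and Hmgb2) were called by edgeR or DESeq2, against 0.0633% of 3158 genes higher and 0.0317% lower, and neither had an unadjusted p under 0.05.

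**Figure D5:**
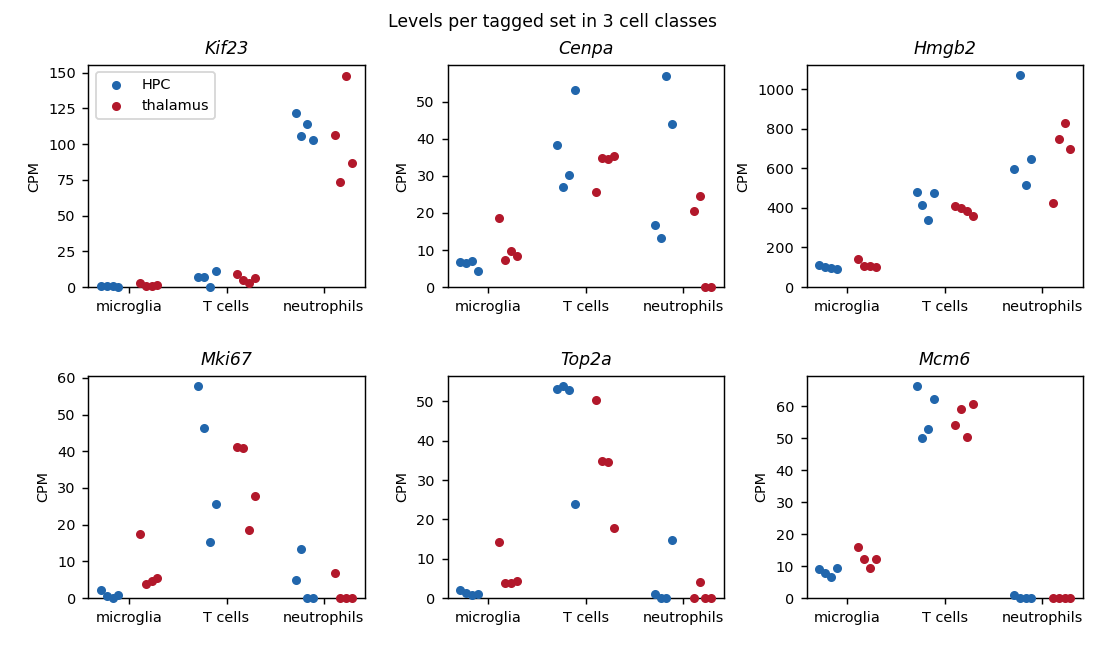
CPM of 6 cell cycle genes in microglia, T cells and neutrophils of each tagged set, thalamus in red and HPC in blue, each panel with its own axis from 0. Kif23 lay between 73.6 and 148 CPM in every neutrophil set and below 12 CPM in every set of microglia and T cells, while Mcm6 was highest in T cells.

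The scarcer classes gave few calls. Macrophages were compared with microglia in 4 sets, where 2 of 25 genes were higher (Mki67 and Hmgb2) and 2 lower (Mcm3 and Stmn1), against 19.5% of all 11609 genes higher and 26.5% lower. Mki67 was at 18.9 ± 13.9 CPM in macrophages and 7.15 ± 6.93 CPM in microglia (SD, n = 4), higher by 2.00 ± 0.51 on the log2 scale (adjusted p = 0.00117) from 29 UMIs, and in 3 of 4 sets. Of the macrophages, 1 of 127 thalamic cells (0.787%, exact interval 0.0199 to 4.31%) and 0 of 92 HPC cells (exact interval up to 3.93%) were mitotic-positive. The thalamic interval includes the 1.19% of thalamic microglia, so these counts cannot show a lower share in macrophages. Dendritic cells were compared in 3 sets, where 3 of 25 genes were higher (Mcm4, Kif23 and Hmgb2) and 1 lower (Stmn1), against 19.4% of all 11887 genes higher and 23.4% lower. Kif23 rested on 9 UMIs there (2.91 ± 0.79, adjusted p = 0.00323). Of 184 dendritic cells, 0 were mitotic-positive, with exact intervals up to 3.52% in the thalamus and 4.45% in the HPC.

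G1 genes also differed in these classes. Ccnd2 was higher than in microglia in macrophages by 3.31 ± 0.49 (adjusted p = 1.32e-07), in dendritic cells by 6.60 ± 0.22 (adjusted p = 3.18e-21) and in neutrophils by 5.44 ± 0.28 (adjusted p = 1.14e-84) on the log2 scale. The inhibitor Cdkn2d was higher by 2.31 ± 0.32, 2.60 ± 0.32 and 3.92 ± 0.24 (adjusted p = 2.82e-08, 3.78e-08 and 3.05e-58). These comparisons share the microglia of the same sets. Macrophages and dendritic cells had too few cells for a test between regions, and NK cells for any test. The mitotic sum of NK cells was 14.7 CPM from 3 UMIs in the thalamus and 379 CPM from 128 UMIs in the HPC, all 128 of them in HPC set 1.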

How the data were processed

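The deposited values were counts, namely UMIs per gene and cell, which the authors made with Cell Ranger (7.1.0 per the file headers, an earlier version in the methods) on GRCm38 (mm10). Whether intron reads were counted is not given in the sources used here. The 12 tag rows were left out. Sets of a region shared 0 barcodes. Cells with 200 to 7500 genes and at most 2% mitochondrial counts were kept. Microglia needed 6 of 12 markers and 3 of 8 specific ones, other classes 3 markers, and cells passing several gates were set aside. Scrublet removed no cells. The genes and lists were chosen with earlier results of these data known.

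Raw counts were summed per set and class (at least 20 cells) and tested with edgeR 4.0.16 in R 4.3.3 (TMM, filterByExpr, quasi-likelihood F-test, Benjamini-Hochberg over all genes tested, threshold 0.05), with the set as a block between classes. SEs were taken from the log2 fold change and F. DESeq2 1.42.0 was an alternative. Scripts were tested on simulated data. P-values measure the spread between tagged sets. Over microglia, same-numbered sets of the regions deviated together (correlations 0.519, 0.136, 0.493 and 0.143, and in T cells 0.203, 0.0484, 0.0199 and 0.249), so blocked values are given beside the region results whose call they change. Named genes were Mki67, Top2a, Cdk1, Birc5, Ccnb2, Pcna, Mcm5, Rrm2, Hist1h1b, Hmgb2 and Stmn1 always, up to 10 called members per comparison by fold change, and up to 5 called genes per direction of other lists with at least 5 CPM. Exons of 9 members overlap a gene on the opposite strand, and of 3 a small RNA on the same strand. Thinning drew UMIs without replacement. Depth was a median of 4723 UMIs in microglia, 3552 in T cells and 1923 in neutrophils.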

Additional observations from a re-analysis of the deposited data

Results flagged for a closer look

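Of 60 groups of 4 sets looked at, 14 held 1 set far from the other 3. The limit used is passed by about 1 in 20 independent groups with a normal spread. The groups here share cells and genes, so the number flagged cannot be judged against that rate. In thalamic microglia this was set 1 each time, with Mki67 at 17.3, Top2a at 14.2, Birc5 at 14.5, Ccnb2 at 10.8, Hist1h1b at 23.6 and Hmgb2 at 142 CPM, an S-phase sum of 216 CPM (other sets 151 to 156), a mitotic sum of 210 CPM (other sets 50.4 to 74.3) and 2.80% mitotic-positive cells. In HPC microglia it was set 1, at 0.0877% S-positive cells, which were 3 cells, with 0 in each of the other HPC sets. In T cells it was thalamus set 3 for Pcna (23.9 CPM), thalamus set 1 for Stmn1 (47.7 CPM) and HPC set 4 for Top2a (23.8 CPM) and Rrm2 (0 CPM).

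The region difference differed between T cells and microglia for 18 genes, by the class by region term. The fitted log2 values were -6.84 for Ccna2, -5.78 for Bub1, -5.40 for Birc5, -5.38 for Ube2c, -4.82 for Rrm2, -4.20 for Plk1, -4.04 for Cenpf, -3.93 for Ccnb2, -3.43 for Stmn1, -3.36 for Pclaf, -3.12 for Mki67, -3.00 for Hist1h1b, -2.83 for Nusap1, -2.73 for Top2a, -2.59 for Tpx2, -2.53 for Prc1, -2.29 for Cdk1 and -2.19 for Kif11. Ccna2, Bub1 and Plk1 rested on 2 to 5 UMIs in thalamic T cells.

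The 902 cells that passed several gates entered no comparison, and their mitotic sums were 158 CPM in the thalamus (467 cells) and 136 CPM in the HPC (435 cells).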

How the results depend on the processing

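None of 1022 values of single called genes under an alternative turned its direction, and 135 of them no longer passed the threshold. Of 280 counts and share differences, 40 moved. The counts of genes under the alternatives and without single sets are given without the share of all genes called in the same fit. They can therefore not be read as changes particular to these genes. In microglia, the 17 genes higher in the thalamus became 28 with no filter on low counts and 26 with the set number as a replicate block. In T cells, the 0 lower became 4 with no filter and 2 with the block. For T cells against microglia, the 0 lower became 1 with DESeq2, with RLE factors, with no filter and with a mitochondrial limit of 5%. For macrophages, the 2 lower became 0 with DESeq2 and with the stricter gate, and with no replicate block 1 was higher and 1 lower. For dendritic cells, the 3 higher became 1 with the stricter gate, and the 1 lower became 0 with DESeq2, 3 with no filter, 2 with the stricter gate and 0 with no replicate block. For neutrophils, the 5 lower became 13 with no filter and 3 with no replicate block. The block changed no other count by over 1.5 times.

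Leaving out 1 set at a time gave 5 to 23 genes higher in thalamic microglia (0 lower) and 0 to 1 lower in thalamic T cells. Against microglia it gave 0 to 1 lower for T cells (19 to 23 higher), 1 to 2 higher and 0 to 3 lower for macrophages, 1 to 4 higher and 0 to 2 lower for dendritic cells, and 2 to 3 higher and 3 to 10 lower for neutrophils (10 without HPC set 4, 3 without thalamus set 1). The 1 gene lower in T cells was Cenpf, without HPC set 1. The macrophage genes fell to 1 higher without HPC set 1, and to 0 lower without thalamus set 1 and 1 without thalamus set 4. The dendritic genes fell to 1 higher without thalamus set 2, and the 1 lower became 0 without thalamus set 1 and 2 without HPC set 1 or thalamus set 2. Where this left 1 set in an arm, its spread was taken from the other sets.

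The thalamus minus HPC share of mitotic-positive microglia was 1.09 percentage points, 0.537 to 1.32 without single sets, lowest without thalamus set 1. That of S-positive microglia was 0.418 points (0.243 to 0.507 without single sets), 0.927 at 3000 UMIs, 1.81 with no thinning and 1.03 at the lower limits of 2 mitotic and 3 S-phase UMIs. In T cells the mitotic difference of -0.16 points (-0.44 to 0.08 without single sets, above 0 only without HPC set 1, and -0.679 with another random draw) became -1.97 with no thinning, and the S-phase difference of -0.22 (-0.35 to -0.0037 without single sets) became -1.16 at the lower limits. Another random draw and leaving Kif23 out of the sum were added after seeing the data. The other draw moved the T cell mitotic difference by more than the SD of the thalamus sets and the other 3 differences by less than the larger SD of the 2 regions, and leaving Kif23 out moved none by that much. Tests between regions in macrophages, dendritic and NK cells, and NK cells against microglia, were not run for lack of cells. In microglia, 8 of the 40 genes were too low to be tested between regions.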
